A study of Mus musculus with 3 samples.

Results

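This account follows 8 genes of bone turnover, the RANKL and OPG system and its companions, across 3 sorted populations of mouse endosteal cells. The genes are Tnfsf11, Tnfrsf11a, Tnfrsf11b, Csf1, Csf1r, Acp5, Ctsk and Calcr. Members were taken as every probe set whose only gene symbol in the array's annotation was one of these names, which gave 16 of the 34945 probe sets with 1 symbol and 8 of 18193 named genes. Endosteal cells line the inner surface of bone, and here they were freed with collagenase from femur and tibia fragments of C57BL/6 mice whose age and treatment the labels do not give. All 3 populations lacked CD45, CD31 and Ter119, which mark leukocytes, endothelium and the erythroid lineage. They were ALCAM+ Sca-1- cells (called ALCAM+), ALCAM- Sca-1+ cells (called Sca-1+) and ALCAM- Sca-1- cells (called double-negative). Each was hybridised to 1 array, so there is no replicate spread and no test between populations. Whether an RNA sample pooled several mice is not stated in the labels.

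Osteoclasts, the cells that dissolve bone, arise from blood-borne precursors of the monocyte lineage. RANKL, the product of Tnfsf11, is shown by bone and stromal cells and binds RANK (Tnfrsf11a) on the precursor, while the soluble decoy OPG (Tnfrsf11b) captures RANKL first. M-CSF (Csf1) keeps the precursors alive through its receptor (Csf1r), and the mature cell carries tartrate-resistant acid phosphatase (Acp5), the collagen-cutting protease cathepsin K (Ctsk) and the calcitonin receptor (Calcr).

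The sequences just upstream of 3 members are shown because these members carry the contrasts described here: Csf1 stood apart in 1 population, Tnfsf11 lay close to the lower limit of measurement, and Ctsk was bright in every population. They come from RefSeq, build GRCm38.p6, and give the 250 bases before the annotated start of each gene, 5′ to 3′ on the gene's own strand. Such windows were found for 6 of the 8 members, and those of Csf1r and Tnfrsf11b were not used here. Capitals mark matches, on either strand, to 6 short motifs: the TATA box, the CCAAT box, the GC box, the AP-1 site, the RUNX motif and a form of the E-box, whose letters are spelled out after the windows. The windows are chr3:107760470-107760719 on the minus strand for Csf1, chr14:78308044-78308293 on the minus strand for Tnfsf11, and chr3:95498960-95499209 on the plus strand for Ctsk.
Csf1: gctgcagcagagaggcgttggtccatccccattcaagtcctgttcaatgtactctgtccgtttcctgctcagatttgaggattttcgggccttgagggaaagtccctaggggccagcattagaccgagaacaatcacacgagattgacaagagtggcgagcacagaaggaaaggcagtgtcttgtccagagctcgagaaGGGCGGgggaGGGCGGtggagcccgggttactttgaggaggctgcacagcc
Tnfsf11: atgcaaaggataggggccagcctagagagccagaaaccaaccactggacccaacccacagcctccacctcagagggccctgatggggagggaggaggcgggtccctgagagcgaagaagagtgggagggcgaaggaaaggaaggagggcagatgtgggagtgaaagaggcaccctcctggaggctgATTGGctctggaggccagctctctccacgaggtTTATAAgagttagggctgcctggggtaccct
Ctsk: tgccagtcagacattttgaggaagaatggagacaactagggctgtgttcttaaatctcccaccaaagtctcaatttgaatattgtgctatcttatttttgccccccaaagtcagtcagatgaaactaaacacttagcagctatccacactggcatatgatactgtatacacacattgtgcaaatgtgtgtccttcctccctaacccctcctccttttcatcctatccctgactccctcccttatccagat
The Csf1 window held 2 GC boxes, which begin 51 and 41 bases before the start, and no TATA box. The Tnfsf11 window held a TATA box 30 bases before the start, overlapped by its match on the other strand at 31, and a CCAAT box at 64. None of the 6 motifs was found in the Ctsk window, which says only that these letters are not in it. Among 32851 windows of the same length, 22.8% held the TATA box as TATAA. The CCAAT box was in 33.8% and the GC box, GGGCGG, in 32.7%. The AP-1 site, TGANTCA, was in 6.75%, and the RUNX motif, TGTGGT, in 14.0%. The E-box form, CANGTG, was in 39.5%. G and C made up 56.4% of the Csf1 window, 60.4% of that of Tnfsf11 and 43.2% of that of Ctsk, against a median of 52.4%.

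Signals are the deposited array intensities on a linear scale, already brought to a common trimmed mean on each array. A floor of 75.4, the pooled median of all non-control signals, marks where a signal is treated as not measurable, and a gene was called measured if its brightest probe set passed it on at least 1 array. Between 48.9% and 51.4% of probe sets did so on each array. The sorting gene Alcam gave 268 on the ALCAM+ array against 41.1 and 36.3, whereas the gene of Sca-1 was not analysed here. Ptprc, which encodes CD45, was at 11.6 in ALCAM+, 163 in Sca-1+ and 159 in double-negative cells, and Pecam1 (CD31) was below the floor throughout. Klf1, an erythroid transcription factor gene, was below the floor in ALCAM+ and Sca-1+ cells and at 3649 in double-negative cells. All populations were sorted as lacking Ter119.

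Csf1 was the only member that differed by 4-fold or more between populations, and it was high in Sca-1+ cells. Its brightest probe set read 261 in ALCAM+, 3111 in Sca-1+ and 305 in double-negative cells. The other 3 probe sets gave 166, 1216 and 299, then 107, 1469 and 120, then 149, 825 and 139, in the same order of populations. In each of the 4 probe sets the Sca-1+ array was the highest. By the brightest probe set Csf1 was 10.2-fold higher in Sca-1+ than in double-negative cells and 11.9-fold higher than in ALCAM+ cells. Over the 4 probe sets the log2 difference between Sca-1+ and double-negative cells was 2.89 ± 0.73 (SD over probe sets, which are not replicates), with a range from 2.02 to 3.62. ALCAM+ minus Sca-1+ gave -3.17 ± 0.61. Between ALCAM+ and double-negative cells Csf1 differed by -0.22 on the log2 scale. That is less than 0.38, the SD per probe set of 1 gene in that comparison, called the disagreement here. The 4 probe sets ranged from -0.85 to 0.10 there. Scaling on the spiked-in controls took the brightest past the disagreement, to -0.71 (poly-A) and -0.72 (hybridization). In these bulk samples fewer cells of a type and less RNA per cell cannot be told apart.

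Marker genes of other cells moved beside Csf1. All 10 of 10 fibroblast and mesenchymal progenitor markers, among them Pi16, Cd248 and Mfap5, exceeded 4-fold in Sca-1+ over double-negative cells. Of all measured genes 5.46% did. The summed signal of the markers was 99198 in Sca-1+, 2689.8 in double-negative and 5785 in ALCAM+ cells, where Pdgfra alone gave 5122. Such sums follow their brightest genes. In ALCAM+ minus double-negative cells 1 of the 10 was at least 4-fold higher and 1 lower (median log2 -0.19), beside 2.01% and 2.67% of all measured genes. Of 8 neutrophil markers 5 were at least 4-fold higher and 2, Mpo and Elane, lower in Sca-1+ than in double-negative cells. The shares of all measured genes were 5.46% and 4.71%. The neutrophil markers summed to 14552 in Sca-1+, 3021 in double-negative and 469 in ALCAM+ cells. None of these markers was at 0, which by itself does not show that such cells were present. Their part in the Csf1 difference was not tested.

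**Figure D1:**
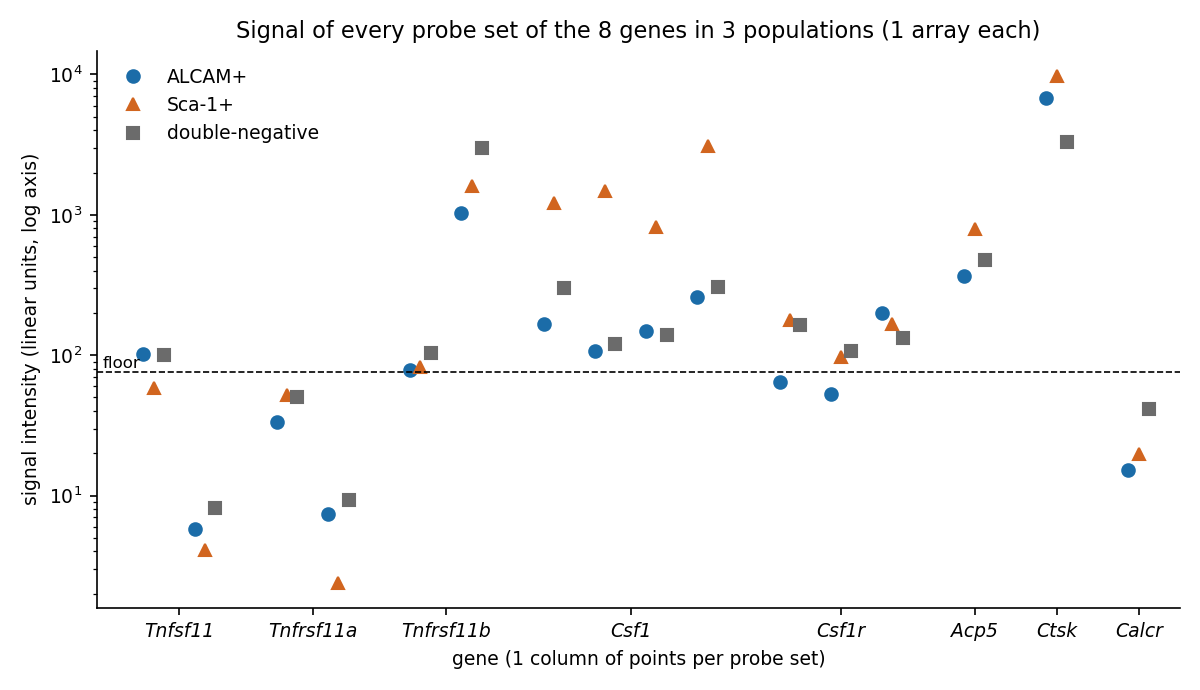
Signal intensity (linear units on a log axis) of each of the 16 probe sets of the 8 genes, with 1 point per sorted population and array. The dashed line is the floor of 75.4; the Sca-1+ triangles of Csf1 stand above the other points in all 4 probe sets, and Tnfrsf11a and Calcr lie wholly under the line.

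RANKL and its decoy behaved differently from Csf1. The brightest Tnfsf11 probe set read 102 in ALCAM+, 57.9 in Sca-1+ and 99.8 in double-negative cells, so the ALCAM+ and double-negative arrays were just above the floor and the Sca-1+ array was under it. The second Tnfsf11 probe set stayed at 5.80, 4.10 and 8.20. By the brighter one ALCAM+ and double-negative cells differed by 1.02-fold, and ALCAM+ cells exceeded Sca-1+ cells by at least 1.35-fold. With scaling on the spiked-in controls the ALCAM+ signal was under the floor too, so ALCAM+ minus double-negative became -0.46 (log2) and the difference from Sca-1+ cells was lost. How much lower Tnfsf11 was in Sca-1+ cells could not be measured so near the floor. Of the 14 named lymphocyte and plasma cell markers 2, Cd8a and Sdc1, passed the floor on any array, and the T cell gene Cd3e was between 6.10 and 13.8.

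Tnfrsf11b, the OPG gene, was well above the floor everywhere and highest in double-negative cells. It read 1035 in ALCAM+, 1615 in Sca-1+ and 2980.1 in double-negative cells. Marker-negative cells stood 2.88-fold above ALCAM+ and 1.85-fold above Sca-1+ cells, and Sca-1+ cells 1.56-fold above ALCAM+ cells. These log2 differences of -1.53, -0.88 and -0.64 (the last for ALCAM+ minus Sca-1+) compare with probe set disagreements of 0.38, 0.47 and 0.53. The dimmer probe set kept the order, at 77.9, 81.8 and 104, but with 1.33-fold at most. Erythroid markers were summed to 13709 in double-negative, 326 in ALCAM+ and 255 in Sca-1+ cells, with 6 of 6 named markers above the floor in double-negative cells, and their part in the Tnfrsf11b difference was not tested. Osteoblast and osteocyte markers followed another order, with summed signals of 147710 in ALCAM+, 47526 in double-negative and 13587 in Sca-1+ cells. Chondrocyte markers summed to 259053 in ALCAM+, 221695 in double-negative and 31017.5 in Sca-1+ cells. Of these 12 markers 11 were at least 4-fold lower in Sca-1+ than in double-negative cells, where 4.71% of all measured genes were. The part of bone and cartilage cells in the Tnfsf11 and Tnfrsf11b differences was not tested.

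Levels of different probe sets are not comparable, so only their changes between arrays were set side by side. Such changes also depended on the probe set. Tnfrsf11b in ALCAM+ minus double-negative cells was -1.53 by the brighter and -0.41 by the dimmer probe set. Tnfsf11 lay so near the floor that a fall could hardly show. The Tnfsf11 to Tnfrsf11b ratio was 2.93-fold higher in ALCAM+ than in double-negative cells, a log2 change of 1.55, with Tnfrsf11b at -1.53 and Tnfsf11 at 0.03. The log2 change of the ratio was 0.48 in Sca-1+ minus double-negative cells and 1.07 in ALCAM+ minus Sca-1+. Because the Sca-1+ signal of Tnfsf11 was under the floor, 0.48 is an upper limit of the signed change and 1.07 a lower limit. A fall of the ratio in Sca-1+ cells is thus not bounded. These limits hold for the main settings only: alternatives of floor, scaling and probe set rule gave 0.10 to 0.88 for the former and 0.57 to 1.45 for the latter. With the probe sets of each gene averaged, the change between ALCAM+ and double-negative cells dropped to 0.98.

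The receptors were at or near the limit of measurement. Tnfrsf11a, the RANK gene, read 33.6 in ALCAM+, 52.3 in Sca-1+ and 50.1 in double-negative cells. The second probe set gave 7.40, 2.40 and 9.30. Calcr gave 15.3, 19.7 and 41.6. Neither passed the floor on any array, so no fold is given for them.

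Csf1r, the M-CSF receptor gene, passed the floor but its 3 probe sets disagreed. The brightest read 201 in ALCAM+, 166 in Sca-1+ and 134 in double-negative cells, whereas the second read 64.3, 178 and 164 and the third 53.0, 97.6 and 108. ALCAM+ cells were thus highest in 1 probe set and lowest, below the floor, in the other two. The log2 difference between ALCAM+ and double-negative cells was 0.59 by the brightest and -0.35 with the 3 averaged, and no order of the populations can be given for this gene.

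The resorption enzymes were well above the floor in cells sorted as lacking CD45, CD31 and Ter119. Blood cell genes still gave signals on some of these arrays. In ALCAM+, Sca-1+ and double-negative cells Ptprc read 11.6, 163 and 159, and the neutrophil gene Ngp 46.5, 4537.5 and 158.5. The part of blood cells in the enzyme signals was not tested. Ctsk read 6778 in ALCAM+, 9739 in Sca-1+ and 3290.3 in double-negative cells with its single probe set. It was 2.96-fold higher in Sca-1+ and 2.06-fold higher in ALCAM+ than in double-negative cells. The 1.44-fold gap between Sca-1+ and ALCAM+ (log2 -0.52 for ALCAM+ minus Sca-1+) was within the disagreement of 0.53 per probe set. Scaling on the spiked-in controls took that gap past the disagreement, to -1.32 (poly-A) and -1.31 (hybridization), and cut ALCAM+ minus double-negative for Ctsk from 1.04 to 0.55 with either. Acp5 read 368 in ALCAM+, 789 in Sca-1+ and 475 in double-negative cells. Sca-1+ cells were 2.14-fold above ALCAM+ and 1.66-fold above double-negative cells for Acp5, and the 1.29-fold step between ALCAM+ and double-negative cells was within the disagreement, which the same scaling exceeded at -0.86. Both enzymes were highest in Sca-1+ cells.

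Of 27 named osteoclast differentiation genes 18 passed the floor in ALCAM+, 20 in Sca-1+ and 21 in double-negative cells. Genes more restricted to osteoclasts and macrophages gave mixed signals. Dcstamp and Ocstamp, needed for the fusion of osteoclast precursors, were between 8.0 and 18.2 and between 5.60 and 6.90. Oscar, an osteoclast receptor gene, read 46.9, 21.6 and 46.9, and the macrophage receptor gene Trem2 reached 63.8 at most. Atp6v0d2, a proton pump subunit gene of osteoclasts, passed the floor in Sca-1+ cells alone, at 118 against 14.2 in ALCAM+ and 39.8 in double-negative cells. Mmp9, a gelatinase gene that neutrophils also express, read 248.5 in Sca-1+, 88.7 in double-negative and 17.3 in ALCAM+ cells. These 6 genes were singled out after their values were seen.

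Of 20 monocyte and macrophage markers 7 passed the floor on at least 1 array, 4 in ALCAM+, 5 in Sca-1+ and 7 in double-negative cells. Adgre1, which encodes F4/80, was between 37.9 and 48.1 and Itgam between 17.4 and 25.2, both below the floor, while Cd68 read 113, 187 and 144. None of the 20 was at 0, which held for every marker list on every array and does not show that such cells were present. The summed signals were 1385 in ALCAM+, 2273 in Sca-1+ and 1794 in double-negative cells. The lysozyme gene Lyz2 was the single marker with a 4-fold difference, at 888 in Sca-1+, 262 in double-negative and 96.6 in ALCAM+ cells. Without Lyz2 the other 19 summed to 1289, 1385 and 1532 in ALCAM+, Sca-1+ and double-negative cells. The order that places Sca-1+ cells first thus rests on Lyz2. Neutrophil markers likewise had their highest sum in Sca-1+ cells, at 14552. The part of macrophages and of neutrophils in the Lyz2, Ctsk and Acp5 signals was not tested.

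**Figure D2:**
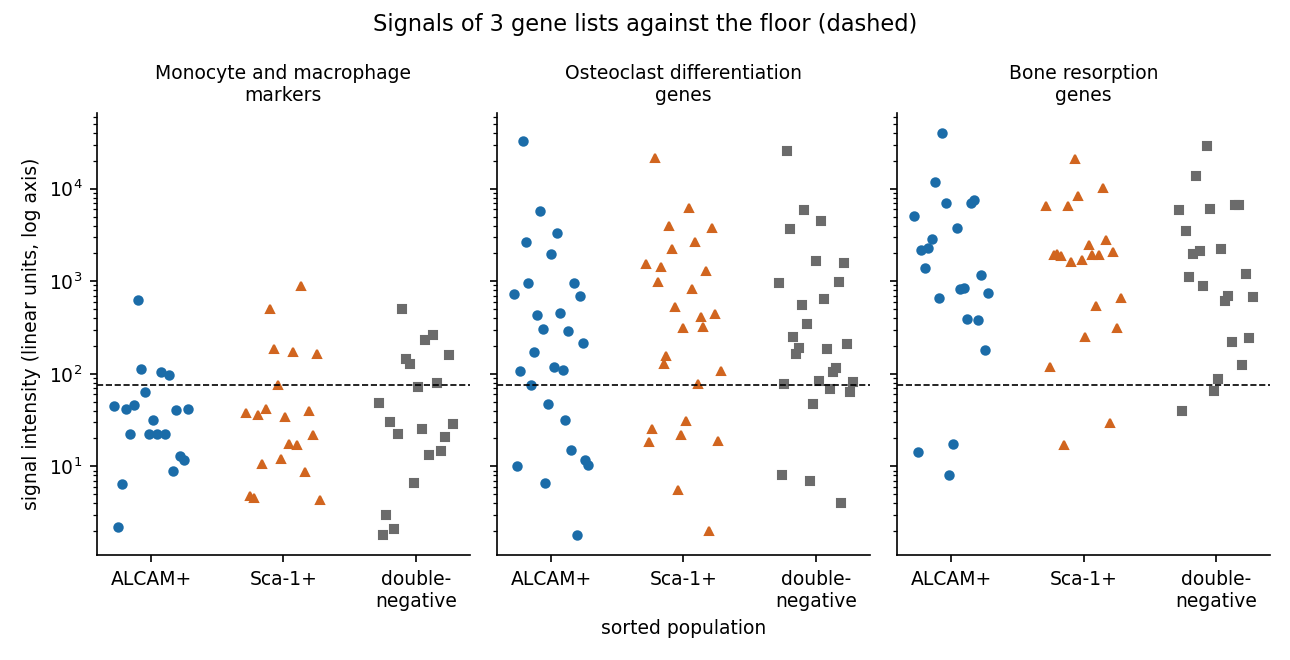
Signal intensity (linear units on a log axis) of monocyte and macrophage markers, osteoclast differentiation genes and bone resorption genes in the 3 populations, with 1 point per gene and the floor of 75.4 dashed. Most of the 20 macrophage markers lie under the line, while 19 to 20 of the 22 bone resorption genes lie above it on each array.

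The members' counts were set beside those of all measured genes. Of the 6 measured members 1, Csf1, exceeded 4-fold in Sca-1+ over double-negative cells, where 5.46% of 12643 measured genes were, and 0 were lower, where 4.71% were. In ALCAM+ minus double-negative cells 0 members were at least 4-fold higher or lower, beside 2.01% and 2.67% of all measured genes. In ALCAM+ minus Sca-1+, which is the difference of the other comparisons and adds no array, 0 were higher and 1, Csf1, was lower, beside 3.99% and 5.86%. With 6 measured genes such counts say little about the group. At a 2-fold limit Ctsk was higher (6.68% of all measured genes were) and Tnfrsf11b lower (10.6%) in ALCAM+ minus double-negative cells, Ctsk losing that call with quantile normalization (0.99) and with control scaling. In Sca-1+ minus double-negative cells Csf1 and Ctsk were higher (15% of all) and 0 members lower (12.7%). In ALCAM+ minus Sca-1+ 0 members were higher (11.2%) and Csf1 and Acp5 lower (15.8%), and Acp5 narrowly lost that call with quantile normalization. The median log2 difference of the measured members was 0.52 in Sca-1+ minus double-negative, -0.10 in ALCAM+ minus double-negative and -0.58 in ALCAM+ minus Sca-1+, beside 0, -0.03 and -0.01 for all measured genes.

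**Figure D3:**
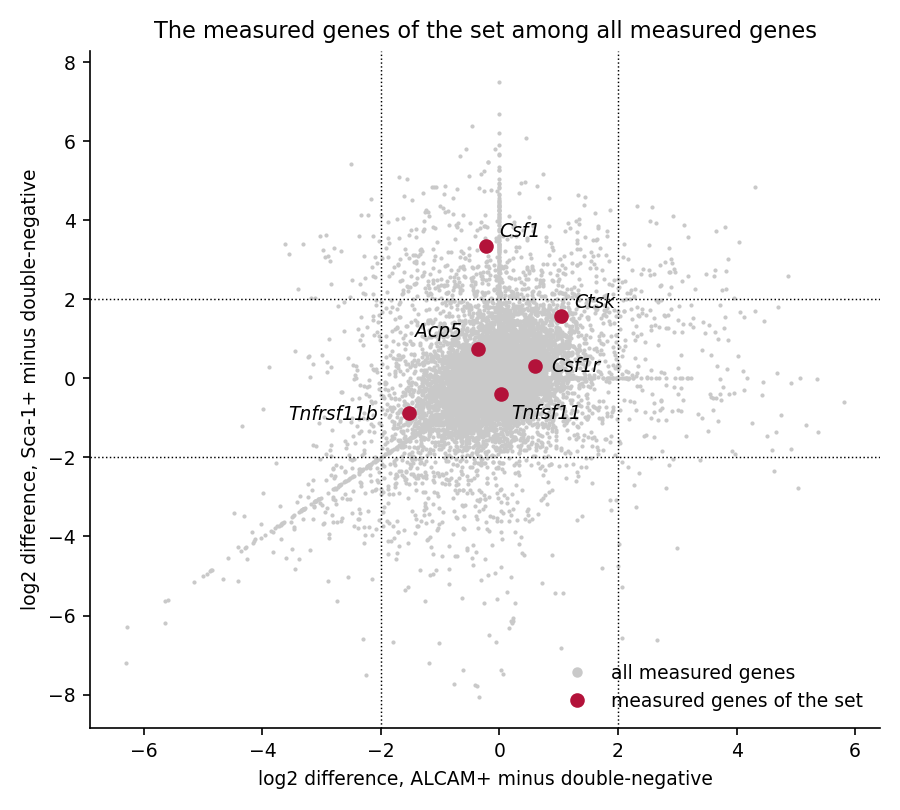
Log2 difference from double-negative cells in ALCAM+ cells (x axis) and Sca-1+ cells (y axis), with each measured gene a grey dot, the 6 measured members in red and dotted lines at 4-fold. Both axes share the double-negative array. Csf1 lies above the upper line at 3.35 and close to 0 on the x axis, and the other 5 members lie inside the 4-fold lines.

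Besides Csf1, 33 factors linked to the exchange between osteoclasts and stromal or bone cells were examined, of which 29 were measured. In Sca-1+ minus double-negative cells 6 of the 29 were at least 4-fold higher and 4 lower, beside 5.46% and 4.71% of all measured genes, and the median log2 difference was 0.78. The higher ones were the chemokine genes Cxcl12 (20123 against 778) and Ccl2 (2249 against 83.2), the Wnt antagonist gene Sfrp1 (2900 against 93.2), the matrix protein gene Postn (17957 against 1168), Slit3 (2175 against 19.1) and the prostaglandin E synthase gene Ptges (353 against 46.4). The lower ones were Lif, Il11, Csf2 and Thbs1. With the probe sets of each gene averaged, 3 of the factors were higher and 2 lower, and Cxcl12, Sfrp1, Ptges, Lif and Thbs1 were under 4-fold. With control scaling 2 were lower, without Csf2 and Thbs1. Lif and Il11, cytokine genes of the IL-6 family, read 201 and 61.3 in Sca-1+ and 1513 and 420 in double-negative cells.

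In ALCAM+ minus double-negative cells 2 of these factors were higher and 2 lower, with a median of 0. The shares of all measured genes were 2.01% and 2.67%. Slit3, at 1496 in ALCAM+ cells, was higher by at least 19.8-fold and the semaphorin gene Sema4d 5.44-fold higher, at 2747 against 505, though under 4-fold with control scaling or averaged probe sets. The cytokine genes Il6 and Csf2 were lower, Il6 by 4.96-fold at 882 against 4377. Il34, which encodes the other ligand of the M-CSF receptor, read 65.2 in ALCAM+, 324 in Sca-1+ and 90.8 in double-negative cells. Like Csf1 it was highest in Sca-1+ cells, 3.57-fold above double-negative and at least 4.29-fold above ALCAM+ cells. In ALCAM+ minus Sca-1+ 4 of the 29 factors were at least 4-fold higher and 7 lower (median -0.54). The shares of all measured genes were 3.99% and 5.86%. The transforming growth factor gene Tgfb1 was 6.60-fold higher and Sema4d 15.0-fold higher, while Cxcl12 was 62.9-fold and Il6 10.7-fold lower. With scaling on the spiked-in controls 1 of the factors was higher and 13 lower, and Tgfb1 was under 4-fold.

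Of the receptors and regulators that control Tnfsf11 and Tnfrsf11b, 17 were measured among 18 named of 20 listed. In Sca-1+ minus double-negative cells 1 was at least 4-fold higher and 2 lower (median 0.14), beside 5.46% and 4.71% of all measured genes. In ALCAM+ minus double-negative cells 0 were either (median 0.07), beside 2.01% and 2.67%. The parathyroid hormone receptor gene Pth1r read 28980.3 in ALCAM+, 1391 in Sca-1+ and 22562 in double-negative cells. Vdr, the vitamin D receptor gene, read 2627, 142 and 893 in the same order. Parathyroid hormone and the active form of vitamin D induce RANKL in bone-forming cells. Both receptor genes were lowest in Sca-1+ cells, and their part in the Tnfsf11 signals was not tested. With probe sets averaged 0 were 4-fold higher in Sca-1+ minus double-negative cells, and with scaling on spiked-in controls 3 were. Ptger4, a prostaglandin E2 receptor gene, was highest there instead, at 2432 against 238 in ALCAM+ and 503 in double-negative cells. In ALCAM+ minus Sca-1+ 3 of the 17 were higher (Pth1r, Vdr and Lifr) and 2 lower (Ptger4 and the oestrogen receptor gene Esr1). The shares of all measured genes were 3.99% and 5.86%, and the median of the 17 was -0.77. With control scaling 2 were higher, without Lifr, and 5 lower, and with averaged probe sets 1 was lower, without Esr1.

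Among osteoclast differentiation genes 22 were measured of 27 named. In Sca-1+ minus double-negative cells 3 were at least 4-fold higher and 1 lower (median 0.40), beside 5.46% and 4.71% of all measured genes. In ALCAM+ minus double-negative cells 0 were either (median -0.11), beside 2.01% and 2.67%. Sirpa, a receptor gene of the fusion process, was 14.6-fold higher in Sca-1+ cells at 2683, and Mitf, whose product activates Ctsk and Acp5 in osteoclasts, 7.16-fold higher at 3950.4 against 552. With probe sets averaged, 0 of these genes were 4-fold higher. Gab2, an adaptor gene of RANK signalling, was 5.61-fold higher and the phospholipase gene Plcg2 5.29-fold lower. Nfatc1, the master transcription factor gene of osteoclasts, read 5760.3 in ALCAM+, 2204 in Sca-1+ and 5949 in double-negative cells by its brightest probe set. Of its other probe sets above the floor, 2 had the same sign and 2 the opposite in ALCAM+ minus Sca-1+. In Sca-1+ minus double-negative cells 3 had the same sign and 1 the opposite. Spi1, which encodes the myeloid factor PU.1, was at 31.3, 77.2 and 67.7.

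All 22 bone resorption genes were measured. Most belong to lysosome and proton pump functions that many cells share, and their median log2 differences were 0.39 in Sca-1+ and 0.17 in ALCAM+ minus double-negative cells. In the former 2 genes were at least 4-fold higher, the integrin gene Itgb3 (1714 against 65.8) and the small GTPase gene Rab3d (1909 against 219), and Car2 was lower. Of all measured genes 5.46% were at least 4-fold higher there and 4.71% lower. Car2, a carbonic anhydrase gene used by osteoclasts and also by red cell precursors, read 2879 in ALCAM+, 17 in Sca-1+ and 13751 in double-negative cells, the population with the erythroid markers. In ALCAM+ minus double-negative cells the creatine kinase gene Ckb was 5.54-fold higher (under 4-fold with scaling on spiked-in controls) and Car2 4.78-fold lower. Of all measured genes 2.01% were at least 4-fold higher there and 2.67% lower. The pump subunit gene Tcirg1 differed little, at 753, 661 and 676.

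**Figure D4:**
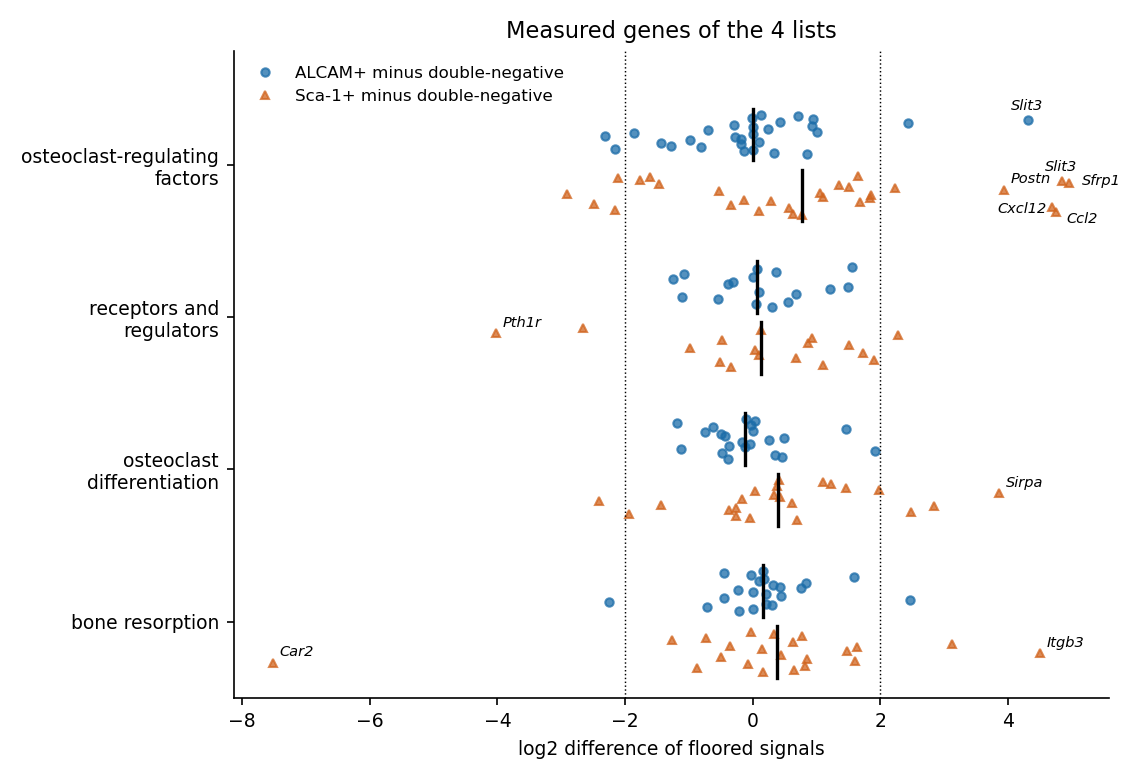
Log2 difference of floored signals for each measured gene of the 4 lists, in ALCAM+ minus double-negative cells (circles) and Sca-1+ minus double-negative cells (triangles), with black bars at the medians and dotted lines at 4-fold. The circles of the receptor and differentiation lists all lie inside the lines; Car2 is the lowest triangle, and Sfrp1, Slit3, Ccl2 and Cxcl12 are the highest.

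Genes with the pattern most like each member over the 3 arrays were found by the smallest Euclidean distance between log2 signals centred on the gene's mean. With 3 points many genes share a pattern, so the number of candidates within a distance of 0.25 is given too. For Csf1 the nearest were Add3, Gstm1, Lepr (the leptin receptor gene, a marker of marrow stromal cells), Plpp3 and Lamc1, at 0.03 to 0.17, and 7 of 8684 candidates were within 0.25. For Tnfrsf11b they were Ccnd1 (cyclin D1), Snhg3, Ngef, Cyp2j6 and Hars, with 70 within that distance. Ctsk was nearest to Mxra8, Sap30l, Ctif, Dmxl2 and Zfp647, with 68 within it. Acp5, with Tango2 first, had 336 such neighbours and Csf1r, with Fam114a1 first, 510 of 8685. Tnfsf11 had 0 of 237 candidates within 0.25, and its nearest, Rbmxl2, was at 1.16; candidates had to reach 4-fold above the floor, which Tnfsf11 itself did not.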

How the data were processed

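RNA was isolated with TRIzol and turned into biotin-labelled cRNA in 2 cycles, per the labels' protocols. The 3′ to 5′ signal ratio was 2.55 to 2.77 for Actb and 3.75 to 3.96 for Gapdh. The values are signal intensities on a linear scale for 45101 probe sets per array, deposited by the authors. MAS5 made them, per the submitters' processing notes, and which version is not stated in the labels. The 2% trimmed mean was 500 on each array, so no further scaling was applied, and differences in total RNA per cell cannot be seen. Control probe sets (64) were left out.

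Gene symbols came from the platform annotation, checked through Entrez identifiers against RefSeq (GRCm38.p6), which changed 0. The probe set brightest on average stood for a gene, and for members every probe set is given as well. Signals were raised to the floor (the pooled median, 75.4) and turned to log2, and differences of at least 2 (4-fold) were counted; against a value at the floor a fold is a lower bound. The disagreement is the SD per probe set (log2), taken from the 2 brightest probe sets of 4154 genes, and was 0.38, 0.47 and 0.53. The SD of the difference between the 2 probe sets was larger, at 0.54, 0.67 and 0.75. The disagreement stands in for an error and leaves out the spread between mice and sorts. The number of arrays, 1 per population, limits the precision. Named are all members, the list genes at least 4-fold apart (up to 6 per list) and those a statement turns on, defining and leading markers, and the 5 genes nearest to a member; fewer are printed for some. Members and lists were chosen with earlier results of these data known. Listed genes that no probe set names were left aside. The procedure was tested on simulated data (Python 3.11.15, pandas 2.3.3).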

Additional observations from a re-analysis of the deposited data

How the results depend on the processing

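Quantile normalization moved 0 of 18 recomputed member differences by more than the disagreement per probe set. Scaling to equal trimmed means could move nothing, since these were already equal. No called member difference turned its sign under any of the 7 alternatives to scaling, floor and probe set rule. For differences chosen at 4-fold or more this says little. A changed floor cannot reverse an order, and control scaling shifted the comparisons by less than 4-fold. Only quantile normalization and averaged probe sets could have turned such a sign. Csf1 stayed past 4-fold in Sca-1+ cells over either other population under each alternative. Over all 126 recomputed differences 28 moved by more than that disagreement, 22 of them under scaling on the spiked-in controls. That scaling shifted the median of all measured genes by -0.42 (poly-A controls) and -0.43 (hybridization controls) in ALCAM+ minus double-negative cells, by 0.25 and 0.24 in Sca-1+ minus double-negative, and by -0.73 with both in ALCAM+ minus Sca-1+. Under it 1 member, Tnfrsf11b, at log2 -2.01 and -2.02, was at least 4-fold lower in ALCAM+ than in double-negative cells, where there were 0 before. At 2-fold in place of 4-fold, 1 member was higher (Ctsk) and 1 lower (Tnfrsf11b) in ALCAM+ minus double-negative cells, 2 were higher in Sca-1+ minus double-negative (Csf1 and Ctsk) and 2 lower in ALCAM+ minus Sca-1+ (Csf1 and Acp5). With probe sets averaged, the change of the Tnfsf11 to Tnfrsf11b ratio in ALCAM+ minus double-negative cells was 0.98. The sign of Tnfsf11, near 0 in ALCAM+ minus double-negative cells, turned under either control scaling (-0.46), and that of Csf1r with probe sets averaged (-0.35). The sign of Csf1r also turned in ALCAM+ minus Sca-1+ under either control scaling (-0.52) and with probe sets averaged (-0.44).

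The counts of the 4 lists, an alternative chosen after seeing the data, moved by over 1.5 times in 41 of 168 recomputations. Of the 51 differences of list genes past 4-fold, 33 to 51 stayed past it and 0 turned. Here too only quantile normalization and averaged probe sets could have turned a sign. With equal trimmed means or the lower floor no call could be lost. The counts for the listed factors in Sca-1+ minus double-negative cells became 3 higher and 2 lower with probe sets averaged, those for the differentiation genes 0 higher. A floor of 433.9, the 75th percentile, left 4 members measured, and one of 21.1, the 25th, all 8. No paired analysis was possible because each population has 1 array.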

Other observations

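Families to which members belong were looked at after the values were seen. In the calcitonin receptor family, where Calcr was below the floor, Calcrl, which encodes the receptor of adrenomedullin and CGRP, read 18.0 in ALCAM+, 1915 in Sca-1+ and 52.8 in double-negative cells. Its partner gene Ramp2 read 121, 5140.0 and 280, and thus was 42.4-fold higher in Sca-1+ than in ALCAM+ cells. Ramp1, whose product turns the receptor towards CGRP, ran the other way, at 5262, 168 and 691, and its other 2 probe sets above the floor were also highest in ALCAM+ cells.

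Among 14 measured genes of the TNF receptor superfamily, Tnfrsf19 was 12.9-fold higher in ALCAM+ than in double-negative cells, at 2048 against 159, and Tnfrsf9 5.15-fold lower, at 143 against 739. Tnfrsf21, which encodes death receptor DR6, read 897 in ALCAM+, 104 in Sca-1+ and 2001 in double-negative cells. Of 7 named ligand genes of the family 3 were measured, and Tnfsf9 was 4.94-fold higher in Sca-1+ than in double-negative cells. Among 14 measured cathepsin genes 2 passed 4-fold in Sca-1+ minus double-negative cells: Ctso was 6.28-fold higher and Ctse at least 147-fold lower. Of all measured genes 5.46% were at least 4-fold higher and 4.71% lower in that comparison. Ctse was also 78.5-fold lower in ALCAM+ than in double-negative cells. It read 142 in ALCAM+, 56.6 in Sca-1+ and 11115 in double-negative cells, the population with the erythroid markers. Ctsl had an order like that of Ctsk, at 12464, 18568 and 5506. The 26 differences past 4-fold in these families, with the colony-stimulating factor genes, kept their signs under the 7 alternatives to scaling, floor and probe set rule. Of these alternatives only quantile normalization and averaged probe sets could have turned the sign of a difference chosen at 4-fold. Depending on the alternative, 14 to 26 of the differences stayed past 4-fold.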
